A study of Homo sapiens with 16 samples.

Results

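The TRIM genes encode a large family of ubiquitin ligases built on a shared N-terminal module, a RING finger followed by B-box zinc fingers and a coiled coil. They were taken here as every gene symbol made of TRIM, a number and at most 1 further letter in the count tables of 2 human multiple myeloma cell lines. This gave 48 TRIM genes among the 15529 genes listed in either table: 42 of 12592 genes in KMS12PE, 44 of 14560 in KMS27, and 38 of 11623 in both. The family was chosen by a measured value, the large fall of TRIM44 counts in the KMS27 clones against their parental cells. That fall is therefore given as a description without a test, whereas the other members came in by symbol alone and were tested.

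Both cell lines carry t(11;14) and were sensitive to venetoclax, which blocks the anti-apoptotic protein BCL2. For each line the parental cells, labelled wild type, were set beside 3 monoclonal DTEP clones, each grown out from a single cell after high-dose venetoclax: clones A, C and D of KMS12PE and clones B5, C1 and C5 of KMS27. The clones were kept in 100 nM venetoclax, no dose is stated for the parental cells, and all cells grew in RPMI-1640 with serum. A clone thus differs from its parental cells by drug, selection and single-cell origin together, which cannot be told apart. Each of the 8 populations had 2 poly-A RNA libraries (replicates 1 and 3 in KMS12PE, 1 and 2 in KMS27), 16 in all. Nothing states that the 2 libraries came from separate cultures, so p-values measure the spread between these libraries, which may be technical.

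As background, the C-terminal domain sorts the family: most members end in a PRY-SPRY domain that binds a target, others in NHL repeats, a PHD finger with a bromodomain, a microtubule-binding COS box or a membrane anchor. Some members attach ubiquitin to sensors and adaptors of the antiviral response or bind viral capsids directly, and a subset of the genes is itself induced by interferon. A few lack the RING finger and work by other means. TRIM44 is one of them: it carries a ubiquitin-binding zinc finger of the kind found in deubiquitinating enzymes, and it is known for stabilising other proteins, TRIM family members included.

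Library totals lay between 5831289 and 13674426 counts for KMS12PE and between 20257318 and 52615971 for KMS27, so low members are measured less precisely in KMS12PE. There, 3 counts correspond to 0.219 to 0.514 CPM (counts per 1000000 of the scaled library total), against 0.0570 to 0.148 CPM in KMS27. A gene is listed only where 4 or more of the 8 libraries reach 5 counts. All 10 listed plasma cell markers were present in both lines, with a summed level of 2928 to 3716 CPM in KMS12PE. In KMS27 the sum was 9924 to 11671 CPM in the parental libraries and 5672 to 10153 CPM in the clones. No myeloid, stromal or erythroid marker was listed. Of 8 T and NK cell markers 2 were listed in KMS12PE, at a summed 1.32 to 4.57 CPM, and 3 in KMS27, at 5.28 to 12.8 CPM.

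The promoters below are shown because they belong to TRIM44 and to the 4 interferon-inducible members that were called in the mean of the KMS27 clones and hold the motif searched. The entries of TRIM21 and TRIM25, which were called there too, held no match and are not shown. TRIM22, also called there, had no promoter entry and was not searched. TRIM34 has 2 entries, of which 1 held a match. Each is the 250 bases before the gene start of RefSeq (GRCh38.p14), 5′ to 3′ on the strand of the gene, with matches to GAAANNGAAA on either strand in capitals. This is the repeated core of the interferon-stimulated response element. TRIM44 lies at chr11:35662525-35662774 (plus strand), TRIM5 at chr11:5685075-5685324 (minus strand), TRIM34 at chr11:5624751-5625000 (plus strand), TRIM14 at chr9:98119223-98119472 (minus strand) and TRIM26 at chr6:30213407-30213656 (minus strand), where 2 overlapping matches form 1 run.
TRIM44: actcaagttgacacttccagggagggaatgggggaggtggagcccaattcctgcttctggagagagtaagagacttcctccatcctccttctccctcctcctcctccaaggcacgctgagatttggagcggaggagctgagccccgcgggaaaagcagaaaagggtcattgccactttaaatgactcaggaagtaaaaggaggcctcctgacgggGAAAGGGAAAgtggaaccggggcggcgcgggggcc
TRIM5: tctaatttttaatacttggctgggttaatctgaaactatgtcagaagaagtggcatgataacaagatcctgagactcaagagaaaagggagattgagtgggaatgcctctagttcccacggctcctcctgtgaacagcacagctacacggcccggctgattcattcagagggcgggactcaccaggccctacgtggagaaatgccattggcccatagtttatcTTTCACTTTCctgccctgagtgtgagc
TRIM34: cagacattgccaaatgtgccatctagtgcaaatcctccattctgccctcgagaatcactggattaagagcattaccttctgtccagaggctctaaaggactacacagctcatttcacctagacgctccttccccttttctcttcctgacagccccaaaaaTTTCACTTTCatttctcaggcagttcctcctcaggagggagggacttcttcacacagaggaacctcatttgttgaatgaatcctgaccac
TRIM14: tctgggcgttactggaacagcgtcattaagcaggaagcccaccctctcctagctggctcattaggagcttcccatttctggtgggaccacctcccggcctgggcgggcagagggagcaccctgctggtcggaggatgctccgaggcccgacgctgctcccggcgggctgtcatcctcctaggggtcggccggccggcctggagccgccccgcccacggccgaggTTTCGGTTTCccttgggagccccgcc
TRIM26: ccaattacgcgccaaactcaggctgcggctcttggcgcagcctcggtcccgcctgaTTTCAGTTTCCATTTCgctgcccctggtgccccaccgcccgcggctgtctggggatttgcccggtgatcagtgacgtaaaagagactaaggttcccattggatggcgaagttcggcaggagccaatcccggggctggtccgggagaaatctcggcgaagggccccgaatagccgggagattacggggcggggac
The match begins 35 bases before the start in TRIM44, 27 in TRIM5, 90 in TRIM34, 26 in TRIM14 and 194 in TRIM26. The motif was found in 7 of the 46 promoter entries (15.2%) available for 36 of the listed TRIM genes, and in 1061 of all 35116 entries (3.02%). TRIM69 and TRIM16 also held a match. A match is a description of these letters and not a shown binding site.

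Levels in the parental cells spanned several orders of magnitude. In KMS12PE the median member stood at 19.6 CPM (0.176 to 496 CPM over 42 genes), and 28 were at 10 CPM or more. In KMS27 the median was 22.8 CPM (0.0766 to 228 CPM over 44 genes), and 34 were at 10 CPM or more. Compared per length of annotated exons, TRIM28, the corepressor recruited by KRAB zinc finger proteins, stood at 58.4 ± 7.37 CPM per kb in KMS12PE and 56.6 ± 1.84 in KMS27 (SD, n = 2 libraries). It was second in KMS12PE and the highest in KMS27, where its SD did not reach the next member.

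TRIM49B ranked first in KMS12PE at 229 ± 12.9 CPM per kb and was not listed in KMS27. It belongs to a group of near-identical copies on chromosome 11, so its count may hold reads from relatives. Next in KMS12PE came TRIM14, a RING-less adaptor of the antiviral signalling protein MAVS, at 31.7 ± 0.0984 CPM per kb. TRIM26 (19.2 ± 1.51) and TRIM25 (20.5 ± 0.867), both linked to antiviral signalling, did not differ beyond their SD there. In KMS27 TRIM26 was second at 23.0 ± 0.276 CPM per kb and TRIM25 followed at 18.0 ± 0.554. The counts of the lines come in separate tables, and nothing states that the libraries were made together, so a level that differs between lines is given as a description. TRIM9, TRIM49B, TRIM49C and TRIM51 were listed in KMS12PE alone, and TRIM22, TRIM31, TRIM34, TRIM54, TRIM55 and TRIM72 in KMS27 alone.

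**Figure D1:**
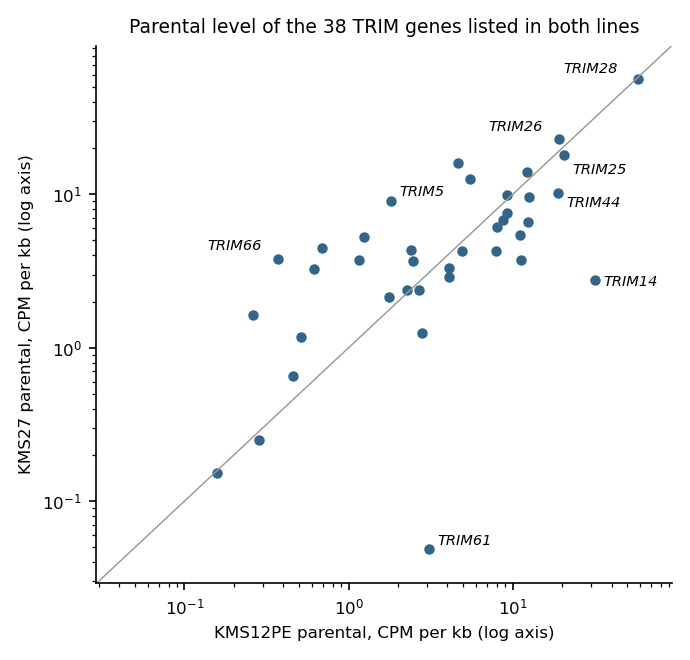
Mean level of each of the 38 TRIM genes listed in both lines, in CPM per kb of exon, in the parental cells of KMS12PE (horizontal, log axis) and KMS27 (vertical, log axis), 2 libraries each. The grey line marks equal values; TRIM28 lies close to it at 58.4 and 56.6, while TRIM14 (31.7 in KMS12PE) and TRIM61 lie below it.

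TRIM44 (chr11:35662805-35818007, plus strand, hg38) was nearly lost from the KMS27 clones. The parental libraries held 135 and 132 CPM, clone B5 6.70 and 8.35 CPM, clone C1 1.03 and 0.960 CPM, and clone C5 11.8 and 10.9 CPM. No clone library came near the parental pair, and the clones themselves did not overlap. By summed counts (7114 in the parental cells, then 318, 77 and 622), TRIM44 was 18.0-fold lower in B5, 133-fold lower in C1 and 11.8-fold lower in C5. The log2 fold changes were -4.16, -7.05 and -3.56, with a mean of -4.92 over the clones, which ranked 31 from the lowest of 14088 genes tested. In bulk RNA, fewer cells with the transcript and less transcript per cell cannot be told apart.

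In KMS12PE the same gene moved little in clones A and C and rose in clone D. Parental libraries held 248 and 244 CPM, clone A 232 and 244 CPM, clone C 271 and 254 CPM, and clone D 336 and 348 CPM. The clone D pair lay well above all other libraries, and the clone C pair lay above those of clone A and of the parental cells. TRIM44 rose in clone D by 0.48 ± 0.08 on the log2 scale (SE; edgeR quasi-likelihood test, Benjamini-Hochberg adjusted p = 0.0119) and differed among the clones (adjusted p = 0.00890). The call in clone D was lost without clone D replicate 3 (adjusted p = 0.0574), parental replicate 1 (0.0603) or parental replicate 3 (0.0756), and the one among clones without clone D replicate 3 (0.0553). Clones A and C stood at -0.05 and 0.10 (adjusted p = 0.991 and 0.839). The KMS12PE response minus the KMS27 response was 5.11 for TRIM44, given as a description.

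The neighbourhood of TRIM44 was examined through the 10 nearest listed genes with a position on each side. A position was found by symbol for 12426 of the 14560 genes listed in KMS27. The chromosome values also rest on genes with a position. Of these 20 genes in KMS27, 13 were lower in the mean of the clones and 0 higher, against 12.7% lower and 13% higher of all genes tested (14088), and their median log2 fold change was -0.51 (range -1.22 to 0.40). Over the 661 genes of chromosome 11 the median was -0.46, and 53.0% were lower, while the median of all genes was -0.01. TRIM44 ranked 3 from the lowest on that chromosome in the mean and lay 4.46 below its median.

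The flanking genes PDHX, a pyruvate dehydrogenase component, and COMMD9, an endosomal sorting factor, changed by -0.50 and -0.48 (adjusted p = 0.00942 and 0.0325). The call of PDHX was lost without parental replicate 2 (0.139), and that of COMMD9 under 6 alternatives (up to 0.173, without parental replicate 2). TTC17, HSD17B12 and API5, some 8 Mb away, changed by -0.81, -0.78 and -0.58 (adjusted p = 0.000231, 0.00121 and 0.00174). RAG1, a recombinase of early lymphocytes with 1.15 CPM in the parental cells, had the lowest mean of the 20 at -1.22 (adjusted p = 0.0348), a call lost in 8 of 13 alternatives (0.0556 to 0.207). LMO2, at 0.336 CPM, moved apart by clone, at 2.10 in B5, -4.26 in C1 and 0.24 in C5. In KMS12PE 17 of the neighbours were tested, and 0 were called in the mean by edgeR, where 1.47% of all genes were. Not every unadjusted p was above 0.05, and their median log2 fold change was -0.0004. With the replicate number as a block 6.5% of all genes were called, and the neighbours' number is not given here, so nothing is read from the 0. RAG1 and CSTF3 differed among the KMS12PE clones (edgeR, adjusted p = 0.00221 and 0.0342), where 8.22% of all genes did. The call of CSTF3 was lost in 6 of 12 alternatives.

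**Figure D2:**
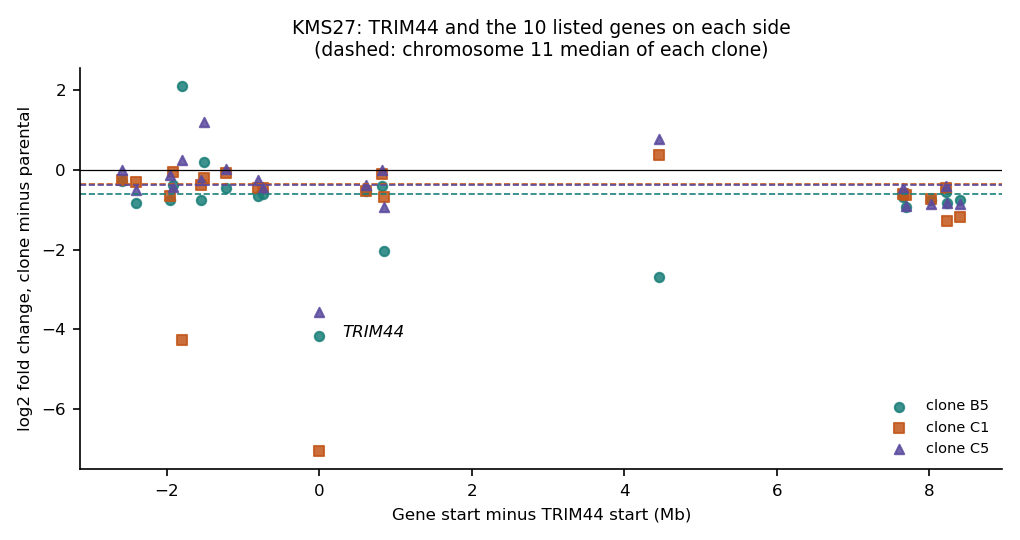
Log2 fold change of each KMS27 clone against parental cells (vertical) for TRIM44 and its 10 nearest listed genes on each side, by distance of gene starts from the TRIM44 start in Mb (horizontal). Dashed lines give the chromosome 11 median of each clone; TRIM44 at -4.16, -7.05 and -3.56 lies far below them, whereas most neighbours lie near them.

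Apart from TRIM44, 13 of 43 TRIM genes changed in the mean of the KMS27 clones, 6 upward and 7 downward. Of all genes tested 25.8% were called (13% higher and 12.7% lower), and nothing is read from the members' share. Their median log2 fold change was -0.0005, against -0.01 for all genes. In 10 of the 43 all 6 clone libraries lay above both parental libraries, and in 6 below, against 16% and 14% of all genes. The numbers of called members changed when single libraries were left out, and fell with the clone libraries as 1 group. The share of all genes called in those runs is not given, so nothing is read from these changes.

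Of the 10 interferon-inducible members tested, 5 fell and 2 rose (12.7% and 13% of all genes), with a median of -0.26. Of those that fell, all but TRIM25 lie on chromosome 11, where 53.0% of the genes were lower. TRIM5, which binds the capsid of incoming retroviruses, stood at 42.2 and 45.3 CPM in the parental cells. It read 10.8 and 8.93 CPM in clone B5, 11.2 and 15.9 in C1 and 15.1 and 15.8 in C5. All 6 clone libraries lay far below both parental libraries. TRIM5 fell by 2.14 ± 0.18 in clone B5, by 1.70 ± 0.18 in clone C1 and by 1.50 ± 0.18 in clone C5 on the log2 scale (SE; adjusted p = 0.000113, 0.000398 and 0.000589), and its mean change was -1.78 (adjusted p = 3.23e-05). It lies on chromosome 11, 1.32 below the chromosome's median.

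TRIM34, a close relative beside TRIM5, read 18.0 and 17.4 CPM in the parental cells and 8.15 to 12.7 CPM (median 11.0) in the clone libraries. It was lower in each clone (-0.95, -0.61 and -0.59, adjusted p = 0.00446, 0.0265 and 0.0326), and its mean was -0.72 ± 0.13 (adjusted p = 0.00391). That mean lay 0.26 under the chromosome 11 median. Without parental replicate 1 the call of the mean was lost (adjusted p = 0.0538), and that of clone C5 was lost without either library of C5 or of the parental cells (0.126 to 0.177). The call of C1 was lost without either library of C1, of C5 or of the parental cells (0.0597 to 0.151).

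TRIM22, an antiviral member of the same cluster, was scarcely detected. Counts summed to 22 in the parental cells, against 0 in B5, 9 in C1 and 56 in C5. It was at least 5.90-fold lower in clone B5 (against 3 counts over the population, which cover counting error only) and differed among the clones (adjusted p = 0.00817). The call in B5 was lost without parental replicate 1 (0.0548) and the one among clones without clone C5 replicate 2 (0.0607). Its mean call (adjusted p = 0.0466) was lost in 10 of 13 alternatives, with values from 0.0533 to 0.976. TRIM5 and TRIM22 overlap on opposite strands in part of their annotation, and strand use in counting is not given in the sources used here, so their reads cannot be told apart there.

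TRIM21, the cytosolic antibody receptor that also lies on chromosome 11, read 22.3 and 26.4 CPM in the parental cells and 11.4 to 18.6 CPM (median 17.0) in the clones. The groups did not overlap. Its mean change was -0.58 ± 0.13 (adjusted p = 0.0126), 0.13 below the chromosome's median. The call was lost without parental replicate 2 (0.146) and with the clones as 1 group (0.0692). For these 4 members of chromosome 11 the part of the lower chromosome-wide median was not tested.

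TRIM25, the ligase that ubiquitinates the RNA sensor RIG-I, fell in clone C1. The parental libraries held 175 and 167 CPM, B5 157 and 140, C1 75.9 and 94.2, and C5 182 and 187. Only the C1 pair stood well apart, at -1.01 ± 0.13 (adjusted p = 0.00120), and the clones differed (adjusted p = 0.00283). Clones B5 and C5 stood at -0.20 and 0.11 (adjusted p = 0.303 and 0.596). The call of the mean (-0.37, adjusted p = 0.0290) rested on C1: it was lost without clone C1 replicate 1 (0.0618), either C5 library (0.0817 and 0.0713), either parental library (0.237 and 0.130), and with the clones as 1 group (0.577).

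TRIM14 rose in every clone. It read 15.6 and 14.9 CPM in the parental cells, 24.5 and 22.4 in B5, 26.6 and 28.8 in C1, and 33.0 and 29.7 in C5. All clone libraries lay above both parental libraries. The changes were 0.63, 0.86 and 1.04 (SE 0.12 each, adjusted p = 0.00739, 0.00181 and 0.000577), with a mean of 0.84 ± 0.10 (adjusted p = 0.000567). The call in B5 was lost without parental replicate 2 (0.0622). TRIM14 was the 1 member of 43 that rose in all 3 clones (4.5% of all genes did), and TRIM5, TRIM34 and TRIM55 were the 3 that fell in all of them (3.73% of all genes).

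TRIM26 read 101 and 99.8 CPM in the parental cells and 119 to 147 CPM (median 125) in the clones, without overlap. Its mean rose by 0.36 ± 0.08 (adjusted p = 0.0123), a call lost without parental replicate 1 (0.122) or 2 (0.127) and with the clones as 1 group (0.0715). Its chromosome 6 had a median of 0.17. Of the remaining inducible members, TRIM38, a brake on inflammatory signalling, stood at 0.35 (adjusted p = 0.0950), TRIM56, an antiviral RNA-binding ligase, at 0.07 (0.768) and TRIM69 at -0.15 (0.462).

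**Figure D3:**
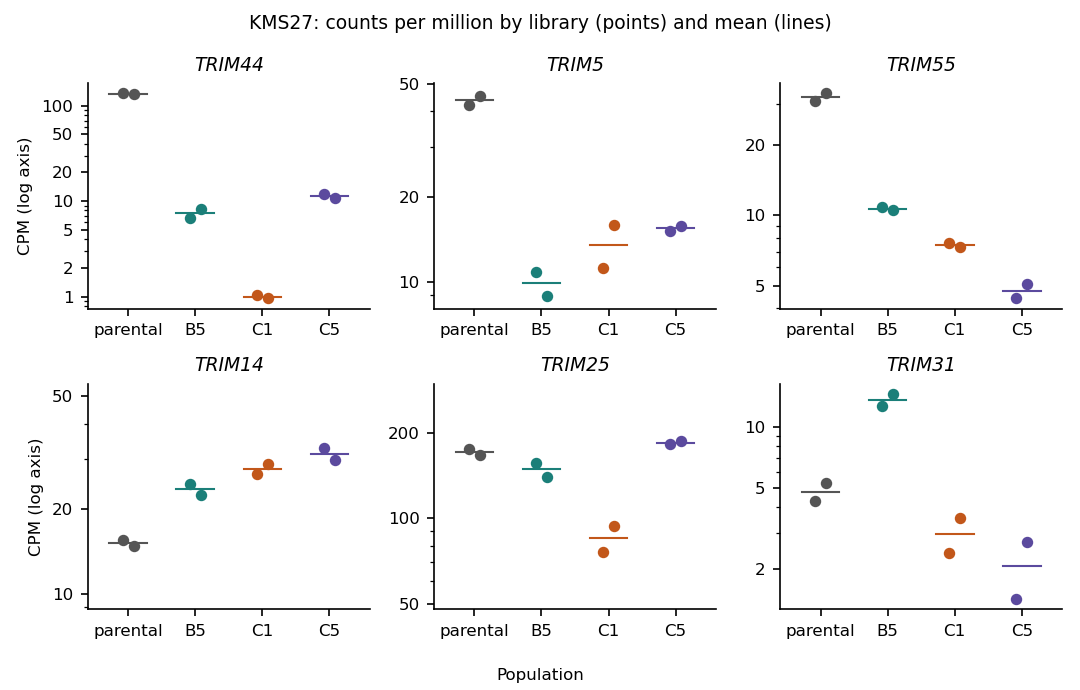
CPM (vertical, log axis) of 6 TRIM genes in the parental cells and clones B5, C1 and C5 of KMS27; points are the 2 libraries of a population and lines their mean. TRIM44, TRIM5 and TRIM55 are lower in every clone library, TRIM14 is higher in every one, TRIM25 is low in C1, and TRIM31 is high in B5 alone.

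Of the members best known from muscle, TRIM55 and TRIM72 fell in the KMS27 clones. TRIM55, a protein of the muscle sarcomere with a COS box, read 30.7 and 33.3 CPM in the parental cells, 10.8 and 10.5 in B5, 7.59 and 7.30 in C1, and 4.41 and 5.11 in C5. The 4 populations did not overlap. TRIM55 fell by 1.58 ± 0.14, 2.10 ± 0.14 and 2.75 ± 0.15 in the 3 clones (adjusted p = 0.000129, 4.02e-05 and 1.25e-05), and its mean was -2.15 ± 0.10 (adjusted p = 4.14e-06). The clones differed among themselves (adjusted p = 0.00424). The median of its chromosome 8 was 0.27, in the opposite direction.

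TRIM72, which repairs muscle membranes, read 24.2 and 22.4 CPM in the parental cells and 10.6 to 20.3 CPM (median 12.9) in the clones. Its mean was -0.70 ± 0.19 (adjusted p = 0.0252). The call was lost without either C1 library (0.0552 and 0.0653), C5 replicate 1 (0.0672) or either parental library (0.168 and 0.0938), and with the clones as 1 group (0.0922). TRIM54, a relative of TRIM55 with 0.507 to 0.725 CPM in the parental cells, stood at -1.31 (adjusted p = 0.0956). TRIM73, whose reads may in part be shared with a near-identical copy, lay just outside the threshold at -1.52 (adjusted p = 0.0573).

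The upward calls other than TRIM14 and TRIM26 were mostly small. TRIM24, a chromatin reader with PHD finger and bromodomain, read 39.1 and 39.8 CPM in the parental cells and 45.0 to 52.3 CPM (median 48.7) in the clones. TRIM35 read 31.7 and 33.0 CPM against 38.8 to 48.4 CPM (median 44.6). Its chromosome 8 had a median log2 fold change of 0.27 in the mean of the clones, in the same direction. TRIM39, on chromosome 6 beside TRIM26, read 19.3 and 17.0 CPM against 20.6 to 28.1 CPM (median 25.4). In each of these 3 all clone libraries lay above both parental libraries. Their means were 0.31 ± 0.08, 0.43 ± 0.08 and 0.43 ± 0.10 (adjusted p = 0.0271, 0.00623 and 0.0167). Leaving out parental replicate 1 or 2 ended each call, for TRIM24 at 0.198 or 0.154, for TRIM35 at 0.0963 or 0.0589 and for TRIM39 at 0.0642 or 0.170. With the clones as 1 group those of TRIM24 (0.0907) and TRIM39 (0.106) were lost too. That of TRIM24 was also lost without C1 replicate 1 (0.0646) and either C5 library (0.0588 and 0.0554).

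TRIM61 was near the limit of detection, at 4 counts in the parental cells and 10, 29 and 44 in B5, C1 and C5. Its mean of 2.40 (adjusted p = 0.0362) was lost in 9 of 13 alternatives, with values from 0.0552 to 0.267. The transcription cofactors TRIM28 and TRIM33, a SMAD4 ligase, stood at 0.27 and 0.24 (adjusted p = 0.0894 and 0.148). TRIM28 read 223 and 234 CPM in the parental cells and 254 to 313 CPM in the clones, above both parental libraries in 6 of 6. TRIM27, TRIM32 and TRIM37 stood at -0.02, 0.02 and 0.14, and TRIM8 and TRIM13 at -0.18 and 0.23 (adjusted p = 0.134 or more in all 5).

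Each clone was also compared with the parental cells on its own, and these comparisons share the parental libraries. Besides TRIM44, 11 of 43 members were called in B5, 6 higher and 5 lower, where 21% of all genes were called (10.8% higher, 10.2% lower). In C1 11 were called, 4 higher and 7 lower, where 21.6% of all genes were (11.5% higher, 10.1% lower). In C5 10 were called, 6 higher and 4 lower, where 19.7% of all genes were (10.4% higher, 9.28% lower). These counts changed for each clone when single libraries were left out. No share of all genes is given for those runs, so nothing is read from the changes.

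Among the 3 KMS27 clones 8 of the 43 members other than TRIM44 differed (13.7% of all genes). This count changed when single libraries were left out, and as no share of all genes is given for those runs, nothing is read from it. TRIM31, an antiviral ligase on chromosome 6, read 4.32 and 5.27 CPM in the parental cells, 12.7 and 14.5 in B5, 2.38 and 3.53 in C1, and 1.42 and 2.71 in C5. It rose in B5 by 1.50 ± 0.31 (adjusted p = 0.00889) and fell in C5 by 1.22 ± 0.33 (adjusted p = 0.0290), and the clones differed (adjusted p = 0.00176). The B5 call was lost without parental replicate 1 (0.0704), and the C5 call without C5 replicate 1 (0.197) or parental replicate 1 (0.0689) or 2 (0.140).

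Clone C1 differed in further members. TRIM16L, a copy of TRIM16, read 13.3 and 15.1 CPM in the parental cells, 27.2 and 25.0 in C1, and 13.2 to 15.6 in the other clones. It rose in C1 by 0.88 ± 0.14 (adjusted p = 0.00302), and its reads may in part be shared with TRIM16. The difference among clones (0.00669) was lost without C1 replicate 1 (0.0711). TRIM4, TRIM36 and TRIM41 stood at 0.42, -0.73 and -0.58 in C1 (adjusted p = 0.0158, 0.0376 and 0.0119). These calls were lost without either C1 library or parental replicate 1, and those of TRIM4 and TRIM36 also without parental replicate 2 (0.0680 to 0.206 in all).

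**Figure D4:**
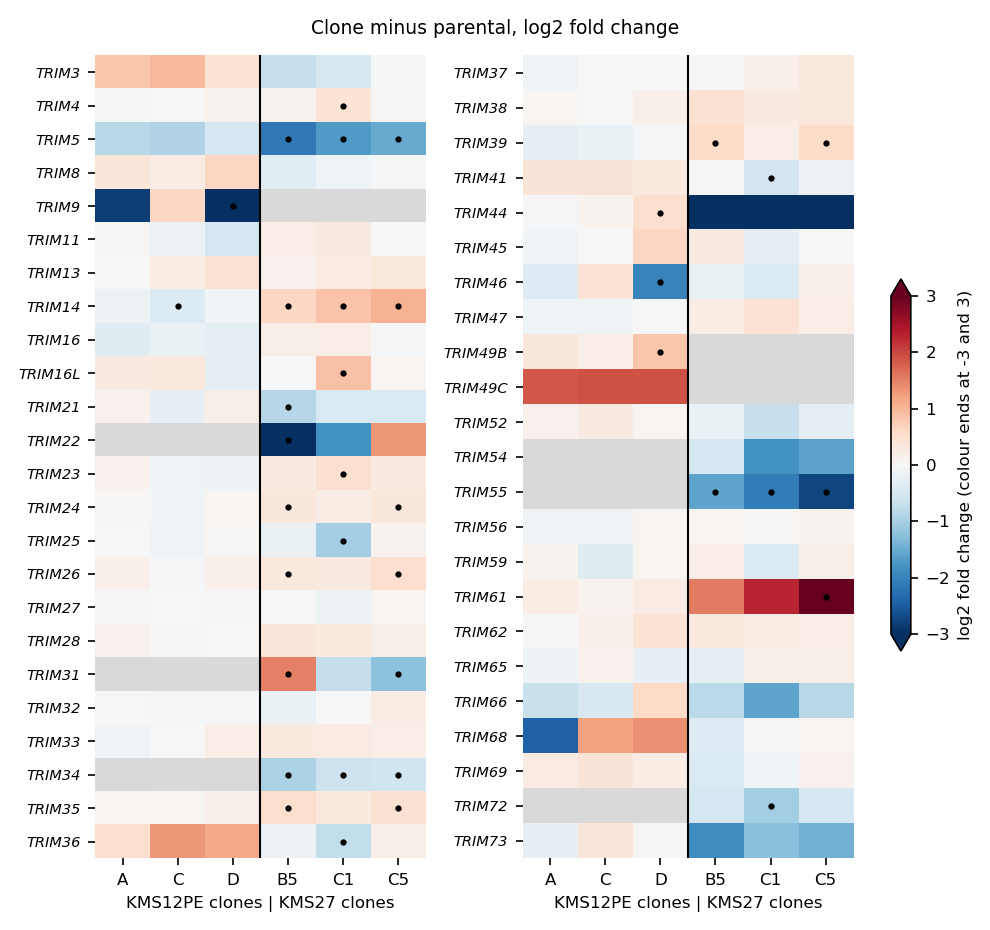
Log2 fold change of each clone against its parental cells (colour, blue lower and red higher, ending at -3 and 3) for the 47 TRIM genes tested in either line; grey marks genes not tested in that line. Black dots mark adjusted p under 0.05 (edgeR), and TRIM44 in KMS27 carries none because it was not tested. TRIM5 is blue in all 6 clones, with dots in the KMS27 clones, and TRIM14 is red with dots in the KMS27 clones.

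In KMS12PE 41 of 42 members were tested, TRIM51 falling below the filter on low counts. By edgeR 0 of the 41 were called in the mean of the clones, where 1.47% of all genes were. Some of the 41 had an unadjusted p under 0.05. DESeq2 called 1, where it called 1.5% of all genes. The replicate numbers pair the libraries of this line, and with the number as a block 5 were called, where 6.5% of all genes were. These were TRIM49B at 0.45 (adjusted p = 7.14e-05), TRIM41 at 0.36 (0.00319), TRIM9 at -1.90 (0.0134), TRIM5 at -0.76 (0.0197) and TRIM14 at -0.21 (0.0331). In 5 members all 6 clone libraries lay above both parental libraries and in 2 below (4.53% and 4.63% of all genes). TRIM5 read 8.26 and 9.27 CPM in the parental cells and 3.61 to 6.15 CPM in the clone libraries, without overlap.

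By clone, 0 of 41 members were called in A by edgeR, where 0.448% of all genes were, though some had an unadjusted p under 0.05. DESeq2 called 1 there (0.79% of all genes) and the block 4 (3.65%). In C 1 was called (1.78% of all genes), and 5 with the block (7.08%). In D 4 were called, 2 higher and 2 lower, where 5.16% of all genes were (1.86% higher, 3.31% lower). The block gave 10 in D (16.4% of all genes) and DESeq2 2 (4.37%). The call in C was TRIM14, at 127 and 134 CPM against 174 and 173 in the parental cells. It fell by 0.41 ± 0.08 (adjusted p = 0.0342, or 0.000427 with the block). That call was lost without either library of A (0.0934 and 0.101), of C (0.255 and 0.143) or of the parental cells (0.176 and 0.161). Fewer members were called in D without either D library or either parental library. As no share of all genes is given for those runs, nothing is read from this.

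Besides TRIM44, clone D differed in TRIM49B, TRIM46 and TRIM9. TRIM49B read 476 and 516 CPM in the parental cells, 665 and 589 in A, 606 and 536 in C, and 956 and 823 in D. Every clone library lay above the parental pair and the D pair was highest, at 0.84 ± 0.12 (adjusted p = 0.00410). TRIM46, which bundles microtubules in neurons and has a COS box, read 2.28 and 2.36 CPM in the parental cells and 0.631 and 0.534 in D (-1.99 ± 0.43, adjusted p = 0.0298). That call was lost by DESeq2 (0.201) and without any of the 8 libraries in turn (0.0540 to 0.170), and it held with the block (0.00786).

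TRIM9, another COS box member best known in neurons, was patchy. It read 1.93 and 2.20 CPM in the parental cells, 0.449 and 0.155 in A, 3.79 and 2.61 in C, and 0.158 and 0.178 in D. In D 3 counts stood against 25 in the parental cells, a ratio of 0.0823 with an exact 95% interval of 0.0159 to 0.270. The fall in D (adjusted p = 0.0167) was lost by DESeq2 (0.0510) and without either D library (0.0516 and 0.0986) or either parental library (0.0656 and 0.0925). With the block it stood at 0.00124 in D and 0.00652 in A.

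Among the KMS12PE clones 5 of 41 members differed (8.22% of all genes; 12 with the block, where 26.1% of all genes were called): TRIM44, TRIM46, TRIM49B, TRIM68 and TRIM9. Fewer differed without C replicate 3 or D replicate 3, and as no share of all genes is given for those runs, nothing is read from this. TRIM68, a PRY-SPRY ligase, read 3.51 and 2.36 CPM in the parental cells, 0.225 and 0.774 in A, 6.96 and 6.49 in C, and 7.89 and 7.21 in D. The parental pair lay between A below and C and D above, without overlap (adjusted p = 0.00147 among clones). Against the parental cells it stood at -2.41 in A, 1.20 in C and 1.36 in D (adjusted p = 0.0838, 0.203 and 0.0723), and each passed with the block (0.00273, 0.0130 and 0.00309). TRIM9 and TRIM46 differed at adjusted p = 0.00221 and 0.0135, and TRIM49B at 0.0167. The TRIM49B call was lost without C replicate 3 (0.0581) or D replicate 1 (0.0958), and that of TRIM46 without C replicate 3 (0.0821) or D replicate 3 (0.0942) and by DESeq2 (0.101).

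**Figure D5:**
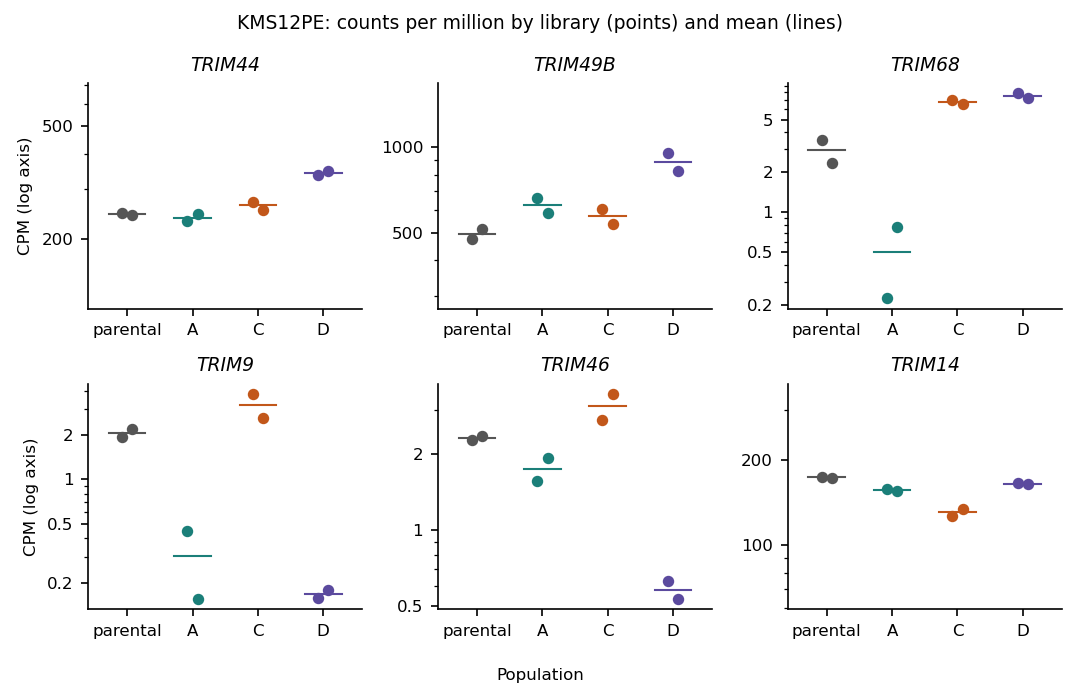
CPM (vertical, log axis) of 6 TRIM genes in the parental cells and clones A, C and D of KMS12PE; points are the 2 libraries of a population and lines their mean. TRIM44 and TRIM49B are highest in D, TRIM46 is lowest in D, TRIM9 is low in A and D, and TRIM68 is low in A and high in C and D.

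The response of the clones differed between the lines for 7 of 37 members other than TRIM44 (14.2% of all genes), 4 with a higher response in KMS12PE and 3 with a lower one (6.45% and 7.7% of all genes; 5 lower with the block, against 11.5%). TRIM14 stood at -0.21 in KMS12PE and 0.84 in KMS27, a difference of -1.05 ± 0.11 (adjusted p = 2.96e-05). TRIM5 stood at -0.75 and -1.78, a difference of 1.04 ± 0.27 (adjusted p = 0.0206), lost without any 1 of the 4 parental libraries (0.0594 to 0.109). TRIM41, a PRY-SPRY ligase, stood at 0.36 and -0.26, a difference of 0.63 ± 0.13 (adjusted p = 0.00518), lost without KMS27 parental replicate 1 (0.0560). TRIM8, a regulator of NF-kB signalling, stood at 0.41 and -0.18, a difference of 0.59 ± 0.14 (adjusted p = 0.0124), lost without KMS12PE parental replicate 1 (0.0993).

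TRIM39 stood at -0.18 and 0.43, a difference of -0.60 ± 0.16 (adjusted p = 0.0225), lost without KMS12PE parental replicate 3 (0.174) or KMS27 parental replicate 2 (0.107). TRIM61 (-2.17, adjusted p = 0.0322) was lost in 6 of 20 alternatives, and TRIM36 (1.24, adjusted p = 0.0413) in 10 of 20, with values up to 0.215 and 0.262. The number with a higher response grew without KMS27 B5 replicate 1. It shrank when any parental library of either line was left out. The share of all genes called in those runs is not given, so nothing is read from these changes. The 4 members higher in KMS12PE were TRIM41, TRIM8, TRIM5 and TRIM36, of which TRIM5 fell in KMS27 and stood below 0 in both lines.

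Genes that work with the family were described as lists. Of 18 interferon-stimulated genes outside the family in KMS27, 2 rose and 6 fell in the mean of the clones (median -0.33), against 13% and 12.7% of all genes. In B5 0 rose and 10 fell (median -0.66), against 10.8% and 10.2% of all genes. In C1 2 rose and 7 fell (-0.43; 11.5% and 10.1%), and in C5 5 rose and 3 fell (0.33; 10.4% and 9.28%). SAMD9L and SAMD9, antiviral translation inhibitors, read 197 and 178 CPM and 279 and 247 CPM in the parental cells, and 59.7 to 98.0 CPM and 98.8 to 154 CPM in the clones. They fell by 1.20 ± 0.16 and 1.04 ± 0.17 (adjusted p = 0.000971 and 0.00241). DTX3L, a ubiquitin ligase of the DNA damage response, read 1.05 and 0.507 CPM in the parental cells and 0 in all 4 libraries of B5 and C1, but 0.539 and 1.40 CPM in C5. Its call in the mean (0.00732) was lost with the clones as 1 group (0.612) and without parental replicate 1 (0.0585).

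Of 37 ubiquitin-activating (E1) and conjugating (E2) enzymes in KMS27, which hand ubiquitin to ligases such as the TRIM proteins, 6 rose and 8 fell (median 0.05; 13% and 12.7% of all genes). UBA7, the activating enzyme for the ubiquitin-like ISG15, fell from 17.5 and 18.9 CPM to between 5.21 and 12.3 CPM (-1.03 ± 0.13, adjusted p = 0.000811). UBA1, the main ubiquitin-activating enzyme, rose by 0.76 ± 0.13 (0.00292), and UBE2A, a conjugating enzyme of DNA repair, by 0.77 ± 0.10 (0.000830). Of 27 genes of RIG-I and NF-kB signalling 5 rose and 3 fell (median 0.09; 13% and 12.7% of all genes). TMEM173, which encodes the adaptor STING, rose from 0.472 and 0.390 CPM to between 1.31 and 3.35 CPM (2.37 ± 0.35, 0.00153), and the interferon regulatory factor IRF5 rose by 0.79 while IRF3 fell by 0.48 (0.00496 and 0.00265). Without parental replicate 1 the calls of IRF5 and IRF3 were lost (0.0599 and 0.0591), and that of IRF5 also with the clones as 1 group (0.0806).

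Of 9 genes of the TRIM28 repressor complex 1 rose (13% of all genes did), CBX1, by 0.32 (adjusted p = 0.0346), a call lost in 7 of 13 alternatives. Of 4 tested TRIM relatives under other symbols 0 changed in the mean by edgeR, where 25.8% of all genes did. In KMS12PE 0 members of these 5 lists were called in the mean by edgeR without the replicate block (1.47% of all genes were). With the block 6.5% of all genes were called, and the lists' numbers are not given here. Some list members had an unadjusted p under 0.05. By clone, SAMD9L was higher in A by 0.68 and in D by 0.71 (edgeR, adjusted p = 0.0409 and 0.00662), lost in 4 and 1 of 12 alternatives. SAMD9L and DTX3L differed among the clones (0.000520 and 0.0154), and the DTX3L call was lost in 2 of 12 alternatives. The KMS12PE response minus the KMS27 response was 1.54 for SAMD9L (0.000521). The medians in KMS12PE were -0.005 for 13 interferon-stimulated genes, -0.06 for 36 E1 and E2 enzymes and 0.04 for 26 signalling genes, against -0.003 for all genes.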

How the data were processed

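For each line the authors deposited a table of raw counts by gene symbol, its columns being libraries; the values are whole numbers without normalization. Per the labels' protocols, RNA was taken with AllPrep and 200 ng went into Roche Kapa mRNA HyperPrep libraries. The genome build was hg38, per the submitters' processing notes. Aligner, counting tool, annotation and strandedness: not given in the sources used here. Whole-genome sequencing was not used here.

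Each line was fitted with edgeR 4.0.16 in R 4.3.3: filterByExpr (12279 and 14088 genes tested), TMM scaling, 1 mean per population over the 8 libraries of the line, and 2-sided quasi-likelihood tests with Benjamini-Hochberg adjustment over all genes tested. A call is an adjusted p under 0.05. A fit of all 16 libraries over 11623 shared genes tested the difference between lines. Biological coefficients of variation were 11.9% (KMS12PE) and 14.3% (KMS27). Levels are counts per 1000000 of the TMM-scaled library total (CPM), with n = 2 libraries and SD where given. Positions and exon lengths are from GENCODE (hg38), which matched all 48 members by symbol. Of all listed genes it placed 11393 of 12592 in KMS12PE and 12426 of 14560 in KMS27. Floors and intervals cover counting error only. The scripts were tested on simulated data.

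Differences of the libraries from their population means correlated between populations of the same replicate numbers at 0.254 to 0.537 in KMS12PE, so its numbers pair the libraries there. Alternatives were DESeq2 1.42.0, RLE size factors, no filter, the replicate block, the clones as 1 group, and each library left out.

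Members and lists were chosen with earlier results of these data known. Named were 17 members fixed by name, up to 15 called members per line by smallest adjusted p, up to 5 called among clones, up to 8 called between lines, up to 3 called genes of each other list, and 10 neighbours on each side of TRIM44. TRIM54, TRIM69, TRIM72, TRIM73, TRIM53CP and TRIM51GP are named after their values were seen.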

Additional observations from a re-analysis of the deposited data

Results flagged for a closer look

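The response of the clones differed between the lines, by edgeR's test of the difference itself in the fit of all 16 libraries, for 7 members. The KMS12PE response minus the KMS27 response, on the log2 scale, was -1.05 for TRIM14, 0.626 for TRIM41, 0.589 for TRIM8, 1.04 for TRIM5, -0.597 for TRIM39, -2.17 for TRIM61 and 1.24 for TRIM36. TRIM61 and TRIM36 are low in 1 or both lines, at 0.0766 CPM for TRIM61 in the KMS27 parental cells. Both lines gave the same sign for TRIM5 (-0.75 and -1.78) and for TRIM61 (0.19 and 2.40), and opposite signs for the other 5.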

How the results depend on the processing

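No called change reversed its direction under any alternative run, while uncalled values near 0, such as those of TRIM27 and TRIM32 in KMS27, changed sign when single libraries were left out. TRIM44 in KMS27, given without a test, stood at -4.36 in the mean with the clones as 1 group, and at -3.98 and -4.32 in B5 without B5 replicate 1 and 2. RLE size factors and the absence of a filter on low counts left every count of called members within 1.5 times its main value. In KMS12PE, whose replicate numbers pair the libraries, the replicate block gave 2 higher and 3 lower in the mean, 4 in clone A, 5 in clone C, 10 in clone D and 12 among the clones. DESeq2 gave 1 higher in the mean, 1 in clone A and 2 in clone D. The block moved the members with a lower response in KMS12PE than in KMS27 from 3 to 5. In KMS27 the replicate differences correlated at 0.444 between clone B5 and the parental cells. Between the other populations they correlated at 0.0597 to 0.139. The numbers were therefore not taken to pair the libraries of the whole line, and a pairing of B5 with the parental cells was not tested. The block in KMS27 kept every count within 1.5 times. With the clones of KMS27 as 1 group, fewer members were called in either direction. The share of all genes called in that run is not given, so nothing is read from this.

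Leaving out 1 library at a time gave, in KMS12PE, 0 to 1 higher and 0 lower in the mean, 0 in clone A, 0 to 1 in C, 1 to 4 in D and 3 to 5 among clones. In KMS27 it gave 1 to 9 higher and 3 to 11 lower, 6 to 18 in B5, 5 to 22 in C1, 3 to 14 in C5 and 4 to 15 among clones. The difference between lines gave 1 to 7 higher and 2 to 4 lower. Calls over all genes in these runs are not given, so nothing about the family is read from these ranges. Where a population is left with 1 library, that library is assumed to vary like the others. Members under about 1 CPM, such as TRIM22, TRIM61 and TRIM73 in KMS27, rest on few counts.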

Other observations

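Some TRIM-named symbols fall outside the family's pattern of names, and 1 of them had a large change in KMS12PE. TRIM53CP, a pseudogene next to TRIM49B on chromosome 11, read 0.878 and 0.786 CPM in the parental cells, 2.02 and 2.32 in clone A, 2.29 and 2.82 in clone C, and 273 and 235 in clone D. It was higher in clone D by 8.23 ± 0.19 on the log2 scale (edgeR, adjusted p = 9.14e-08, at most 2.22e-05 over its 12 alternatives). TRIM49B was also highest in clone D, and reads shared between copies of this cluster cannot be told apart. TRIM51GP, another pseudogene of this kind, read 2.63 and 4.56 CPM in the parental cells and 6.40 to 20.2 CPM in the clone libraries. Its mean change of 1.79 was not called (adjusted p = 0.206), and it was called with the replicate block (5.08e-06).

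In KMS27 clone C1, 2 of the 4 tested TRIM relatives under other symbols rose, where 11.5% of all genes did. They were PML, by 0.54 (edgeR, adjusted p = 0.0158), and MID1, by 1.33 (0.0353). How these calls held under the alternatives is not given here, and nothing is read from so small a list. PML organises nuclear bodies and MID1 is a microtubule-associated ligase with a COS box.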
